A study of Mus musculus with 12 samples.

Results

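The data describe vehicle-treated neurospheres of the mouse ventral midbrain, the floor of the midbrain where dopaminergic neurons arise. They come from the 3 libraries titled Control, chosen by title, of 12 in the series. Neurospheres are floating aggregates grown from dissociated neural tissue, and they hold progenitors together with their early progeny. The tissue was taken from CD-1 embryos at embryonic day 11.5. Spheres were expanded for 3 days and then kept for 5 h in N2 medium with the solvent DMSO; the treatment label of these samples reads "none". The other 9 libraries, from spheres given GW3965, CT99021 or both, enter only the scaling of the values. The labels give neither the sex nor the number of embryos, nor whether the 3 replicates were separate cultures. Each SD therefore gives the variation among the 3 libraries at hand, and this may be technical.

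At this stage the ventral midbrain is patterned by Sonic hedgehog from the floor plate, the strip of cells at the ventral midline, and by FGF and Wnt signals from the isthmus, the boundary with the hindbrain. Dopaminergic progenitors of the floor plate carry Lmx1a and Foxa2, their postmitotic precursors switch on Nr4a2, and mature dopaminergic neurons make tyrosine hydroxylase (Th). The series tested an agonist of the liver X receptors (LXRs), nuclear receptors for oxysterols, and an inhibitor of GSK3, the kinase that marks beta-catenin for destruction in the Wnt pathway. The levels of these receptors and pathway members without either compound are described here.

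The Control libraries held 21314093, 19984548 and 12268085 counts over 23965 gene rows for replicates 1, 2 and 3. Where 3 values are given for 1 gene, list sum or ratio, they belong to these replicates in this order. Levels within a gene are in CPM, counts scaled to a common library total, and levels between genes are in CPM per kilobase of the listed length. Values after ± are SD with n = 3 libraries. A gene row was called detected at a mean of 1 CPM or more, which held for 14644 rows, or 61.1% of all. This share is the background for every count of detected list members below. A mean of 10 CPM per kilobase or more was reached by 7094 rows (29.6%), and the median over all rows was 2.37 CPM per kilobase. At this depth a count of 0 in all 3 libraries allows a level of up to 0.0551 CPM, a limit that covers counting error only.

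Control replicate 3 stood apart from the others. Among 10759 gene rows at 10 CPM or more, it lay at least 2-fold above both other libraries in 333 (3.1%) and at least 2-fold below both in 119 (1.11%). The same counts were 36 (0.335%) and 25 (0.232%) for Control replicate 1, and 11 (0.102%) and 131 (1.22%) for Control replicate 2. Over these rows the median coefficient of variation between the libraries was 14.1%. Replicate 3 was also the shallowest library, and its mitochondrial mRNA share was 3.84%, against 3.04% and 2.64% in replicates 1 and 2. What set the libraries apart was not tested. Some orders within a list rest on 1 library: with each library left out in turn, the highest member per kilobase changed in 16 of 43 gene lists, and the median moved by over 1.5 times in 10.

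All 6 markers of ventral midbrain progenitors and dopaminergic precursors were detected. Nes, an intermediate filament of neural stem cells, was at 738, 882 and 470 CPM (697 ± 209). Sox2, a transcription factor that keeps neural progenitors undifferentiated, was at 157, 239 and 137 CPM (178 ± 53.8). Otx2, which gives forebrain and midbrain their identity, was at 77.8, 136 and 69.3 CPM (94.2 ± 36.0). These 3 were highest in replicate 2, as were 35.7% of all rows at 10 CPM or more, and lowest in replicate 3, as were 50%.

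The markers of the floor plate lineage were lower and less even. Lmx1a was at 10.002, 16.6 and 42 CPM (22.9 ± 16.9), and Foxa2 at 7.04, 7.96 and 33.5 CPM (16.2 ± 15). Both were highest in replicate 3; without it their means were 13.3 and 7.5 CPM. Nr4a2, the orphan nuclear receptor of dopaminergic precursors, was at 17.2, 14.6 and 19.4 CPM (17.1 ± 2.4) and varied little. Per kilobase the order of the means was Nes (112), Sox2 (69.5), Otx2 (51.7), Foxa2 (7.25), Lmx1a (6.65) and Nr4a2 (4.96), and of the neighbours in this order Otx2 and Foxa2 alone had ranges that did not overlap. The rows are listed in mm9 on chromosome 3 at 87774914 (Nes) and 34548826 (Sox2), 14 at 49277858 (Otx2), 2 at 147868613 (Foxa2), 1 at 169619588 (Lmx1a) and 2 at 56959636 (Nr4a2). In these bulk samples fewer cells of a type and less RNA per cell cannot be told apart.

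**Figure D1:**
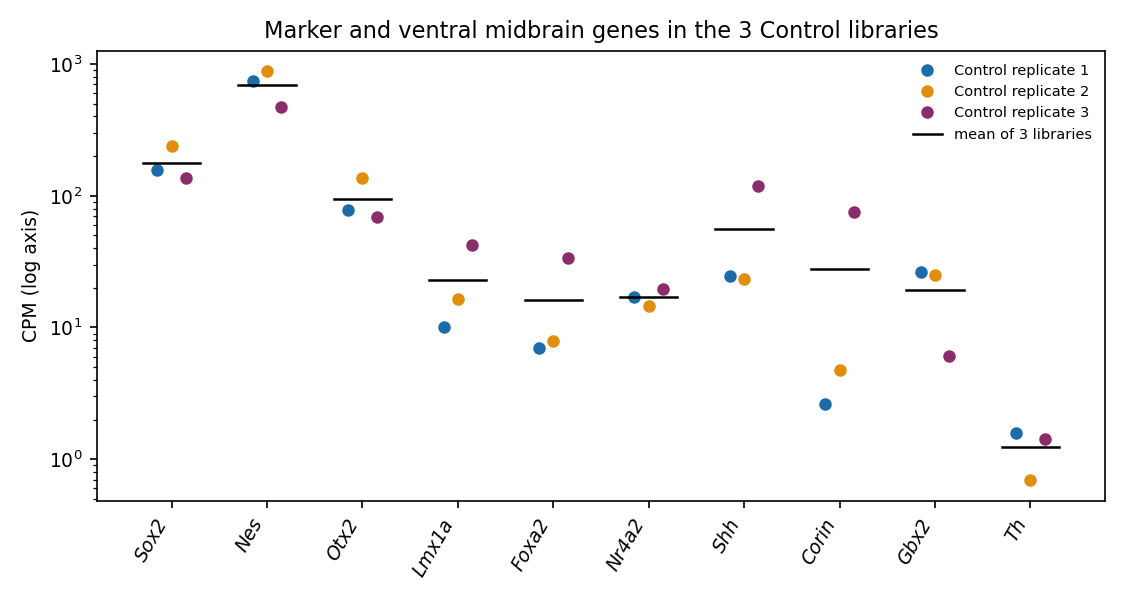
CPM on a log axis for the 6 marker genes and 4 further genes of the region (Shh, Corin, Gbx2, Th) in the 3 Control libraries; points are libraries and bars their mean. Nr4a2 varies little between libraries and Sox2, Nes and Otx2 are highest in Control replicate 2, whereas Shh, Corin, Foxa2 and Lmx1a are highest, and Gbx2 lowest, in Control replicate 3.

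The rows with the highest levels per kilobase were globins, mitochondrial transcripts and housekeeping genes. Hba-a1 and Hba-a2, adult alpha globins whose rows hold the same reads at both of their listed loci, reached 8492 and 8441 CPM per kilobase at the higher locus and 7684 and 7637 at the other. Hbb-y, the embryonic beta-like globin, followed at 8387 CPM per kilobase. The mitochondrially encoded mt-Co1, mt-Atp8, mt-Co2, mt-Atp6, mt-Co3, mt-Cytb and mt-Nd1, subunits of the respiratory chain and ATP synthase, lay between 2271 and 5024 CPM per kilobase. Ubb, a polyubiquitin gene, was at 2387, and Eef1a1, the elongation factor that brings tRNAs to the ribosome, at 3189 CPM per kilobase. By CPM alone, mt-Co1 was the second row with 7767 ± 1193 CPM, and Tuba1a, the alpha-tubulin of growing neurons, was the tenth row with 3534 ± 1031 CPM.

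Neural progenitor genes were present at high levels, with 19 of 20 detected, against 61.1% of all rows, and a median of 27.8 CPM per kilobase. Vim, the intermediate filament of radial glia, was at 2140, 2054 and 1542 CPM (1912 ± 323). Fabp7, a fatty acid binding protein of radial glia, was at 671, 870 and 495 CPM (678 ± 187). Per kilobase these reached 989 and 787, above Nes, the next in order. The ranges of Vim and Fabp7 per kilobase overlapped, while those of Fabp7 and Nes did not.

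Other progenitor genes were lower and did not all vary the same way. Sox1 was at 100, 153 and 46.7 CPM and Slc1a3, the glial glutamate transporter, at 160, 181 and 87.2 CPM, both with their highest value in replicate 2. Prom1, a membrane glycoprotein of apical processes, was at 57.7, 90.9 and 256 CPM and was the only list member at least 2-fold higher in replicate 3 than in both others. Pax6, an eye and forebrain progenitor factor, was at 12.3 ± 3.75 CPM. Lin28b, which blocks let-7 maturation, was detected at 9.77 ± 2.45 CPM, whereas its paralogue Lin28a was at 0.448 ± 0.194 CPM and did not count as detected.

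All 25 cell cycle genes were detected, with a median of 32.0 CPM per kilobase, and 20 of the 24 at 10 CPM or more had their highest value in replicate 2, against 35.7% of all rows at that level. Ccnd2, the D-type cyclin of neural progenitors, was at 812, 888 and 422 CPM (121 ± 42.6 per kilobase). Pcna, the clamp of the replication fork, was at 114 ± 30.4 CPM per kilobase, and Top2a, which untangles replicated DNA, at 82.7 ± 18.3. Mki67, the proliferation antigen, was at 333, 528 and 512 CPM. The lowest member was Cdkn2a, a brake of the cycle linked to senescence, at 7.5, 1.43 and 2.46 CPM.

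Neuronal genes were prominent beside the progenitor genes. All 20 pan-neuronal genes were detected, 18 of them at 10 CPM per kilobase or more, and their median of 45.0 CPM per kilobase stood at the percentile 94.0 of all gene rows. Gap43, a protein of growth cones, was at 504, 372 and 221 CPM (261 ± 101 per kilobase). Tubb3, the beta-tubulin of neurons, was at 506, 350 and 283 CPM (208 ± 62.8 per kilobase), and Stmn2, which loosens microtubules in growing axons, at 448, 291 and 255 CPM (165 ± 51.0 per kilobase). These 3 were highest in replicate 1, as were 18 of the 20 members, all at 10 CPM or more, against 33.5% of all rows at that level.

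The ratio of Tubb3 to Nes per kilobase was 2.34, 1.35 and 2.06. Dcx, the microtubule protein of migrating neurons, was at 664, 487 and 622 CPM. Rbfox3, the mature neuronal nuclear antigen, was the lowest member with 32.6, 21.1 and 21.6 CPM (5.40 ± 1.39 per kilobase). Gap43, Tubb3, Stmn2 and Dcx, all genes of young neurons, lay above it in all 3 libraries.

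Proneural and early differentiation factors were detected for 14 of 18 genes, with a median of 3.89 CPM per kilobase. Hes6, which opposes Hes1 and favours differentiation, was the highest at 47.6, 43.4 and 42.9 CPM (31.1 ± 1.80 per kilobase). It was followed by Ebf3 and Ebf1, helix-loop-helix factors of young neurons, at 21.1 ± 5.99 and 12.5 ± 6.13 CPM per kilobase. Neurog2, the proneural factor of midbrain dopaminergic precursors, was at 3.66, 5.04 and 2.46 CPM. Neurod4, Atoh1 and Neurog1 had means of 0.706, 0.171 and 0.123 CPM, and Neurog3 had 0 counts.

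**Figure D2:**
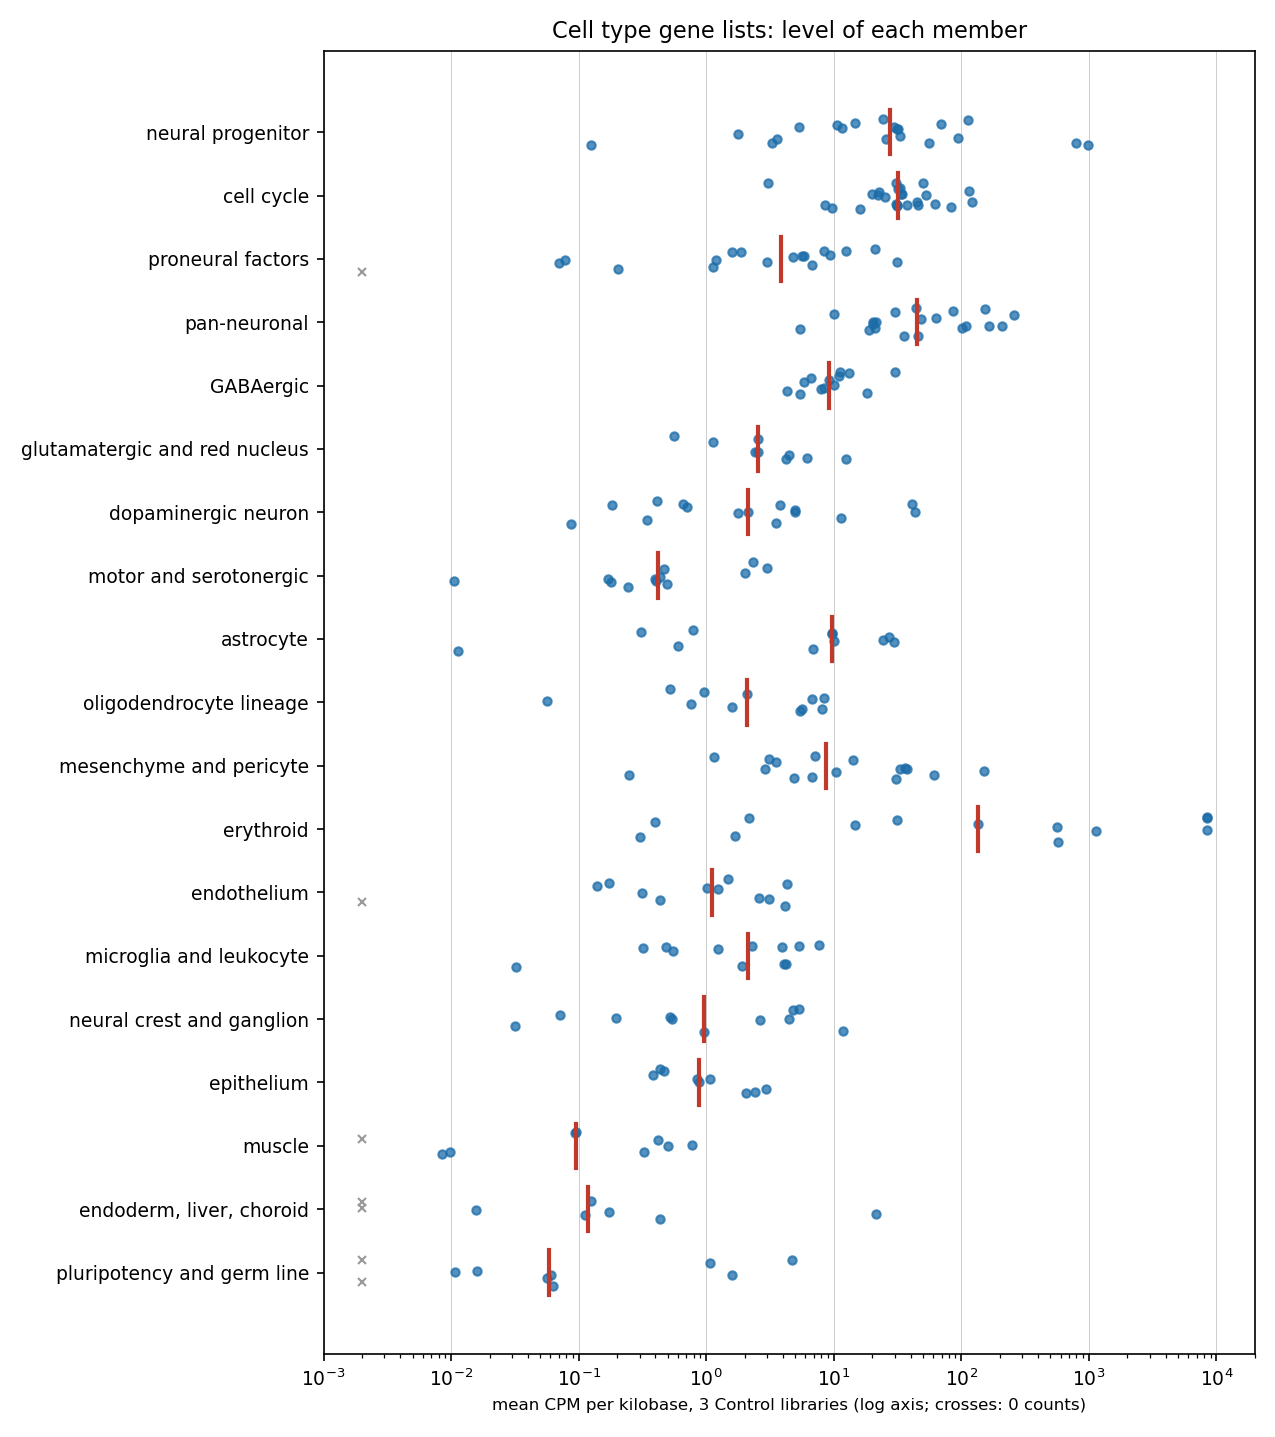
Mean CPM per kilobase on a log axis (n = 3 Control libraries) of each member of 19 cell type gene lists; points are genes, crosses at the left edge are genes with 0 counts and red bars are list medians. Pan-neuronal, cell cycle and neural progenitor lists have medians of 45.0, 32.0 and 27.8, whereas muscle, endoderm and pluripotency lists lie mostly under 1; the erythroid list holds the highest points.

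Floor plate and dopaminergic progenitor genes were detected for 18 of 19 members, with a median of 7.25 CPM per kilobase that became 3.86 without replicate 3. Of the 12 members at a mean of 10 CPM or more over replicates 1 and 2, 8 were at least 2-fold higher in replicate 3 than in both, against 1.89% of all rows chosen in this way. With replicate 3 in the filter, through which some members pass, the count was 10 of 14, against 3.1% of rows. Shh, the ligand made by the floor plate, was at 24.7, 23.4 and 118 CPM, with a mean of 55.5 CPM that became 24.1 CPM without replicate 3. Corin, a serine protease used to sort floor plate cells, was at 2.64, 4.80 and 75.5 CPM. Ntn1, the netrin that attracts commissural axons, was at 194, 192 and 769 CPM and was the highest member per kilobase (65.9 ± 57.0). Its rank rested on replicate 3, without which it was at 33.0 and Otx2 at 58.5 CPM per kilobase.

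The axon guidance genes Slit2 and Spon1 were also highest in replicate 3, with 97.7, 147 and 493 CPM and with 127, 96.8 and 397 CPM. Foxa1, the close relative of Foxa2, was at 12.6, 25 and 65.2 CPM. The members shared with the midbrain list differed: Otx2 and En1 (98.8, 148 and 65.0 CPM) were lowest in replicate 3, and Lmx1b, the relative of Lmx1a, was even at 17.2, 18.8 and 20.3 CPM. Wnt1, made at the midbrain roof and floor, was at 18.2, 18.4 and 8.80 CPM. Aldh1a1, a retinaldehyde dehydrogenase of a dopaminergic subset, was at 0.392 ± 0.347 CPM and not detected.

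Genes of the dopaminergic neuron list were detected for 13 of 15 members, with a median of 2.11 CPM per kilobase that became 1.39 without replicate 3. En2 (43.5 ± 15.9 CPM per kilobase) and Foxp1 (11.3 ± 3.11), among the highest, are transcription factors that other cells also make. The enzymes and transporters of dopamine were far lower. Th was at 1.57, 0.692 and 1.43 CPM (1.23 ± 0.473), or 0.663 ± 0.255 per kilobase, near the threshold of detection. Ddc, the decarboxylase shared with serotonin neurons, was at 4.58, 3.56 and 16.6 CPM, and Slc18a2, the vesicular monoamine transporter, at 10.7, 11.8 and 35.4 CPM. Slc6a3, the dopamine transporter, was at 1.30, 0.593 and 2.54 CPM. Pitx3, a factor of differentiating dopaminergic neurons, was at 0.128 ± 0.099 CPM, the lowest of the list.

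Genes of midbrain and isthmus identity were detected for 19 of 20 members, with a median of 7.55 CPM per kilobase. Otx2 (51.7 ± 19.7 CPM per kilobase), En2 (43.5 ± 15.9) and En1 (39.2 ± 15.8) led the list, the last 2 being engrailed factors of midbrain and anterior hindbrain. Of the 13 members at 10 CPM or more, 9 were highest in replicate 2, against 35.7% of all rows at that level, and 11 lowest in replicate 3, as were 50% of those rows. In the per kilobase order of the list, the ranges of all 18 neighbouring pairs of detected members overlapped. Pax5, an isthmus factor, was at 11.6, 15.5 and 9.75 CPM, and Pax2, its relative, at 5.42, 5.09 and 1.82 CPM. Gbx2, which sets the hindbrain side of the isthmus against Otx2, was at 26.5, 25.1 and 6.11 CPM, and was thus lowest in replicate 3. Fgf8, the organiser signal of the isthmus, was not detected at 0.833, 1.14 and 0.159 CPM.

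**Figure D3:**
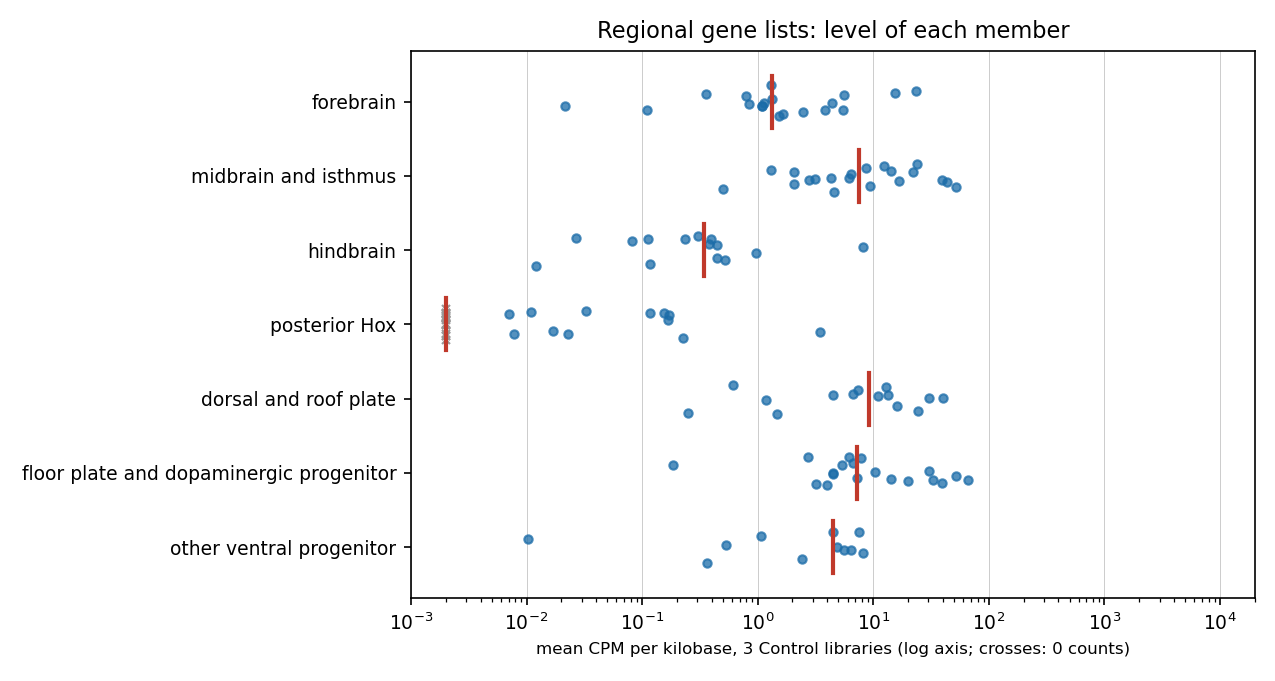
Mean CPM per kilobase on a log axis (n = 3 Control libraries) of each member of 7 regional gene lists; points are genes, crosses at the left edge are genes with 0 counts and red bars are list medians. The midbrain and isthmus list has a median of 7.55, the forebrain list 1.32 and the hindbrain list 0.343, and 17 of 29 posterior Hox genes have 0 counts, so their median bar, drawn at the left edge, stands for 0. The posterior Hox list also holds some Hox genes outside paralogue groups 6 to 13.

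Forebrain genes were detected for 15 of 19 members (78.9%, against 61.1% of all rows) but at lower levels, with a median of 1.32 CPM per kilobase. Barhl2, a homeobox factor of the diencephalon, was the highest at 46.9, 72.5 and 51.6 CPM (23.6 ± 5.66 per kilobase). Lhx2, a factor of cortex and eye, followed at 51.7, 48.8 and 10.5 CPM, and Nkx2-1, a factor of hypothalamus and ventral telencephalon, at 15.3, 21 and 13.3 CPM. Dlx6, Fezf1, Rax and Hesx1 were not detected, with means of 0.931, 0.864, 0.194 and 0.0264 CPM.

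Hindbrain genes were detected for 5 of 14 members, with a median of 0.343 CPM per kilobase that became 0.00324 without replicate 1. Egr2, the Krox20 factor of rhombomeres that is also an immediate early gene, was at 4.31, 2.77 and 1.74 CPM. Hoxd3 was counted in replicate 1 alone, at 4.68 CPM there and 0 in replicates 2 and 3.

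The same held across the Hox genes of paralogue groups 2 to 5, which mark hindbrain and cervical levels. The summed counts of these 12 rows were 470, 1 and 2 in the 3 libraries, and 11 of the rows had 10 or more counts in replicate 1. Hoxb3 was at 5.00, 0.0494 and 0 CPM, Hoxb2 at 2.32, 0 and 0 CPM, and Hoxa2 at 2.04, 0 and 0 CPM. Without replicate 1 the hindbrain list had 2 detected members. Groups 6 to 13, which mark trunk levels, held 17 rows with 0 counts among 24. Their exception was Hoxc8 at 3.70, 4.55 and 17.4 CPM, the one detected member of the posterior list. That list has 29 rows, as it also holds some Hox genes outside groups 6 to 13.

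Dorsal and other ventral progenitor genes were also present. Of 14 dorsal and roof plate genes 12 were detected, led by Zic1 (40.1 ± 8.64 CPM per kilobase), a zinc finger factor of the dorsal neural tube, Bmp7 (30.6 ± 21) and Zic2 (24.2 ± 5.32). Without replicate 3 Bmp7 was at 18.5, under Zic2 at 23.2 CPM per kilobase. Gdf7, the roof plate ligand, and Msx3 were not detected, at 0.925 and 0.592 CPM. Of 11 genes of ventral progenitors beside the floor plate 9 were detected, with none at 10 CPM per kilobase and a median of 4.45 that became 2.87 without replicate 3. Olig1 was at 32.0, 11.1 and 12.1 CPM, Nkx6-2 at 15.4, 23.2 and 6.74 CPM and Dbx1 at 5.83, 13.2 and 23.0 CPM, each highest in a different library. Helt, a factor of midbrain GABAergic progenitors, was at 0.600 CPM, and Ptf1a was the lowest at 0.0165 CPM.

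All 13 GABAergic genes were detected, with a median of 9.24 CPM per kilobase. Gad1, which makes GABA, was at 85.5, 50.4 and 46.5 CPM (18.3 ± 6.45 per kilobase). Lhx5, a LIM factor of these neurons, was at 27.7, 24.0 and 60.3 CPM (13.2 ± 7.03), and Tal2, the midbrain GABAergic selector, was lowest at 4.27 ± 1.14 CPM per kilobase. All 9 glutamatergic and red nucleus genes were detected as well, with a median of 2.57 CPM per kilobase. Slc17a6, the vesicular glutamate transporter, was at 76.6, 52.1 and 36.6 CPM (12.5 ± 4.57 per kilobase), Lhx9 at 6.17 ± 1.71 and Pou4f1, a POU factor of the red nucleus, at 4.43 ± 0.729. Slc17a7, a second vesicular glutamate transporter, was lowest at 0.562 ± 0.277 CPM per kilobase. Gad1 exceeded Slc17a6 by ratios of 1.48, 1.29 and 1.69 per kilobase.

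Of 12 motor and serotonergic genes 6 (50%) were detected, against 61.1% of all rows. Their median was 0.418 CPM per kilobase, and the serotonergic members were highest in replicate 3. Slc6a4, the serotonin transporter, was at 2.45, 1.73 and 21.3 CPM. Tph2, the serotonin-making hydroxylase, was at 1.71, 1.14 and 16.3 CPM, and Fev, their transcriptional regulator, at 0.741, 0.939 and 7.93 CPM. Without replicate 3 the mean of Slc6a4 was 2.09 CPM. Among 9 motor neuron genes 3 were detected, and Mnx1 was lowest with 0.0165 CPM.

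Glial genes were mainly those that progenitors share. Of 11 astrocyte genes 9 were detected, led by Gja1, a gap junction protein (29.7 ± 4.77 CPM per kilobase), Tnc, a matrix protein (27.2 ± 27.2), and Nfib, a gliogenic factor (24.2 ± 4.05). Gjb6 counted as detected through replicate 3, without which it was at 0.164 CPM. Tnc was at 422, 80.4 and 86.0 CPM, so its mean rested on replicate 1, and the list median of 9.62 CPM per kilobase became 6.27 without that library. Gfap, the filament of mature astrocytes, had 0.0926, 0.0494 and 0 CPM, and S100b was not detected at 0.543 CPM. Of 11 oligodendrocyte lineage genes 10 were detected with none at 10 CPM per kilobase. The highest was Pdgfra, a receptor of oligodendrocyte precursors that mesenchyme also carries, at 11.8, 2.22 and 157 CPM, followed by Olig1 (8.10 ± 5.21 CPM per kilobase). Without replicate 3 the order was turned, with Pdgfra at 1.02 and Olig1 at 9.49 CPM per kilobase. Mag, a late myelin glycoprotein, was lowest at 0.143 CPM.

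Mesenchymal genes were present in unequal amounts. Of 16 genes of mesenchyme and pericytes 15 were detected, and their summed level was 1739, 333 and 3186 CPM. Their median of 8.73 CPM per kilobase became 4.68 without replicate 3. Of the 13 at 10 CPM or more, 11 were at least 2-fold lower in replicate 2 than in both others, against 1.22% of all rows. Col3a1, a fibrillar collagen, was at 622, 102 and 1822 CPM (150 ± 156 per kilobase), Col1a1 at 401, 58.5 and 414 CPM and Col1a2 at 252, 39.5 and 302 CPM. The contractile genes Acta2 (107, 51.0 and 27.4 CPM) and Tagln (119, 26.7 and 10.7 CPM) had another order, with replicate 1 highest. Rgs5, a pericyte gene, was lowest at 0.474 CPM.

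Erythroid genes had the highest list sum, at 10975, 15625 and 30610 CPM, with 11 of 13 detected; reads that Hba-a1 shares with Hba-a2 enter this sum at both rows. Hbb-y was at 2888, 5319 and 9882 CPM (6030 ± 3551), and Hba-x, the embryonic alpha-like globin, at 340, 413 and 1637 CPM. All 9 members at 10 CPM or more were lowest in replicate 1, against 29.5% of all rows at that level, and highest in replicate 3, against 30.8%. The list median of 136 CPM per kilobase became 57.0 without replicate 3. Hbb-y exceeded Hbb-b1, an adult beta globin whose counts lie within 4 of those of Hbb-b2 in each library, by ratios of 13.3, 17.5 and 14.4 per kilobase. Klf1 and Gata1, nuclear factors of erythroid precursors, were not detected at 0.643 and 0.574 CPM.

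Vascular and immune genes were low. Of 12 endothelial genes 8 (66.7%) were detected, near the 61.1% of all rows. They were led by Eng at 14.0, 4.20 and 29.2 CPM, Kdr, a VEGF receptor, at 14.6, 35.9 and 18.1 CPM, and Cdh5, the vascular cadherin, at 14.7, 4.10 and 19.3 CPM. Cldn5, Tie1 and Tek were under 1 CPM at 0.657, 0.686 and 0.665, and Sox17 had 0 counts. Of 12 microglia and leukocyte genes 10 were detected, with Cd68, a lysosomal protein (7.67 ± 1.78 CPM per kilobase), Tyrobp, a signalling adaptor (5.33 ± 2.05), and C1qa, a complement subunit (4.22 ± 2.47), as the highest. Csf1r, the receptor that microglia need, was at 9.77, 6.13 and 6.98 CPM. Aif1 and P2ry12 were not detected at 0.472 and 0.0782 CPM. The summed levels of the microglia list were 59.6, 35.4 and 41.5 CPM and those of the endothelial list 67.1, 54.2 and 88.2 CPM.

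The neural crest, epithelial, muscle and endoderm lists had medians of 0.963, 0.884, 0.0947 and 0.119 CPM per kilobase, under the 2.37 of all rows. Single members were higher, such as Ttr at 21.5 CPM per kilobase. The shares of members detected were 72.7%, 77.8%, 0% and 25% in these lists, against 61.1% of all rows. Neural crest and ganglion genes were detected for 8 of 11, led by Tfap2b (11.7 ± 3.04 CPM per kilobase), an AP-2 factor also made in the midbrain, and followed by Ets1 (5.36 ± 2.73). Foxd3 was not detected at 0.488 CPM. Epithelial genes were detected for 7 of 9, led by Krt5 at 0.185, 6.13 and 13.9 CPM, Krt14 at 0.370, 3.71 and 8.64 CPM, and Epcam at 4.17, 2.47 and 6.58 CPM. Cldn4 and Krt8 were not detected at 0.896 and 0.832 CPM, and Trp63, the basal epithelial factor, was lowest per kilobase (0.380 ± 0.597). None of 9 muscle genes was detected, with Myf5 at 0 counts. Of 8 genes of endoderm, liver and choroid 2 were detected, Ttr, the thyroxine carrier of choroid plexus and liver, at 10.05, 43.5 and 31.8 CPM and Cldn2 at 1.37 CPM, while Alb and Afp had 0 counts.

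**Figure D4:**
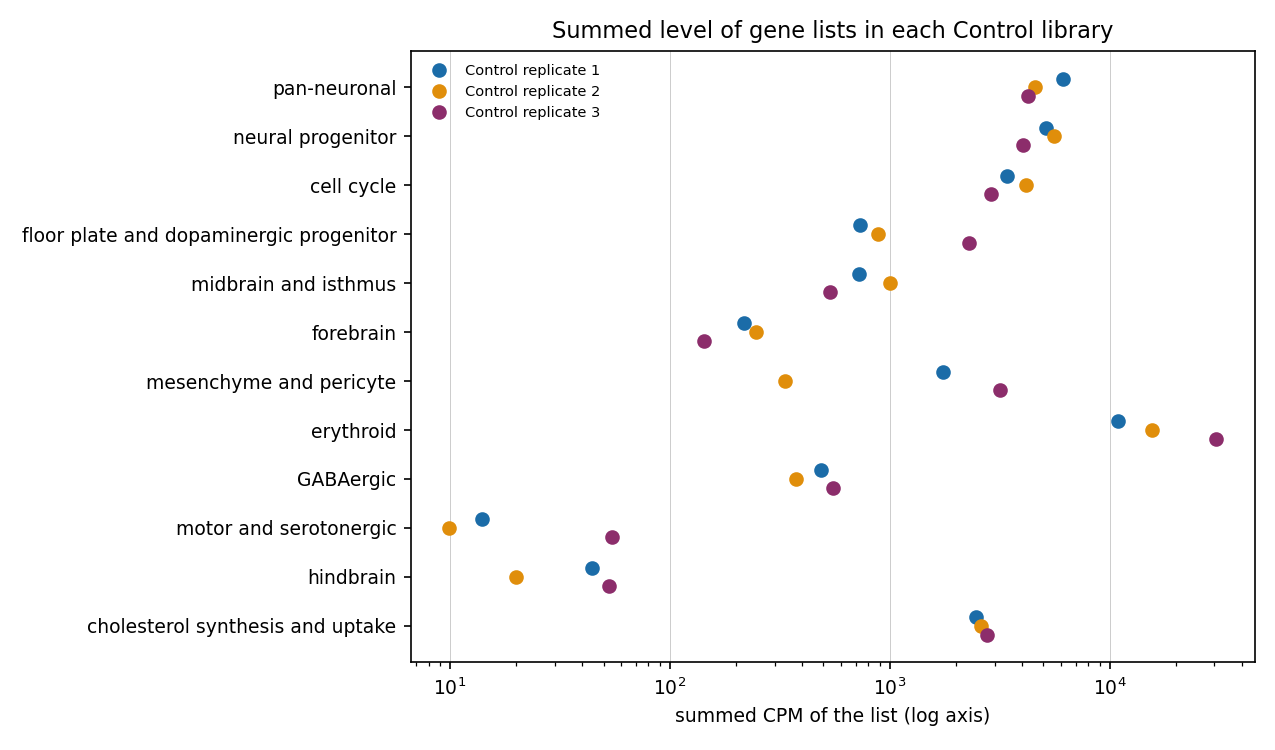
Summed CPM on a log axis of 12 gene lists in each Control library; points are libraries. The cholesterol list stays between 2469 and 2771 CPM in all 3 libraries, whereas the mesenchyme list ranges from 333 to 3186 and the erythroid list from 10975 to 30610 CPM, with Control replicate 3 highest in both.

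Of the 2 LXR genes, Nr1h2, which encodes LXR beta, carried nearly all of the signal. It was at 41.4, 44.5 and 39.0 CPM (41.6 ± 2.75), or 20.2 ± 1.33 per kilobase. Nr1h3, which encodes LXR alpha, was at 0.833, 0.989 and 3.41 CPM (1.74 ± 1.44), and at 0.911 CPM without replicate 3 it would not count as detected. The ratio of Nr1h2 to Nr1h3 per kilobase was 51.4, 46.6 and 11.9.

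LXRs bind DNA together with a retinoid X receptor (RXR). Rxrb was at 60.3, 63.9 and 55.7 CPM (20.9 ± 1.42 per kilobase), Rxra at 55.9, 52.0 and 78.5 CPM (11.6 ± 2.66) and Rxrg at 1.62, 1.09 and 3.65 CPM (0.860 ± 0.548). The per kilobase ranges of Rxrb and Nr1h2 overlapped, and so did those of Rxrg and Nr1h3. Ncor1, a corepressor that unliganded receptors recruit, was higher at 27.8 ± 2.27 CPM per kilobase. The coactivators Ncoa2, Ncoa3 and Ncoa1 were at 13.8 ± 1.72, 9.44 ± 0.951 and 7.40 ± 0.558, and Nrip1, a corepressor of liganded receptors, at 5.83 ± 0.747.

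Known LXR target genes were detected without agonist for 15 of 18 members, with a median of 12.8 CPM per kilobase. Scd2, the stearoyl-CoA desaturase of brain, was at 1289, 1499 and 1029 CPM (229 ± 42.4 per kilobase). Apoe, the lipid carrier made by glia, was at 144, 111 and 131 CPM (95.3 ± 12.2), and Fasn, the fatty acid synthase, at 526, 527 and 410 CPM (48.6 ± 6.71). Srebf1, the lipogenic transcription factor, was at 86.1, 106 and 78.8 CPM. The cholesterol exporters were less even, with Abca1 at 39.1, 27.3 and 113 CPM and Abcg1 at 19.7, 13.7 and 9.04 CPM, in opposite order between replicates 1 and 3. Mlxipl, Abcg5 and Abcg8 were not detected at 0.647, 0.383 and 0.149 CPM.

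Cholesterol synthesis and uptake genes had the lowest median coefficient of variation of the lists with 20 or more members. Of 27 members 26 were detected and 24 reached 10 CPM per kilobase; the median was 22.9 CPM per kilobase and the median coefficient of variation 9.26%, against 14.1% over all rows at 10 CPM or more. Acat2, an acetyl-CoA thiolase, was at 89.4 ± 5.82 CPM per kilobase, and Srebf2, the transcription factor of the pathway, at 70.1 ± 6.05. Sqle, the squalene epoxidase, was at 191, 194 and 180 CPM.

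Of 12 enzymes that make or clear oxysterols 7 were detected, near the 61.1% of all rows. Cyp51 and Ebp, shared with the synthesis list, were at 41.0 and 5.81 CPM per kilobase. Cyp46a1, the neuronal cholesterol 24-hydroxylase, was at 5.93, 5.59 and 4.76 CPM and Cyp7b1, an oxysterol 7-alpha-hydroxylase, at 1.30, 2.97 and 2.46 CPM. Cyp27a1, Ch25h, Cyp11a1 and Cyp8b1 were not detected at 0.781, 0.487, 0.117 and 0.0264 CPM. Cyp7a1, the rate-limiting enzyme of bile acid synthesis in liver, had 0 counts.

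**Figure D5:**
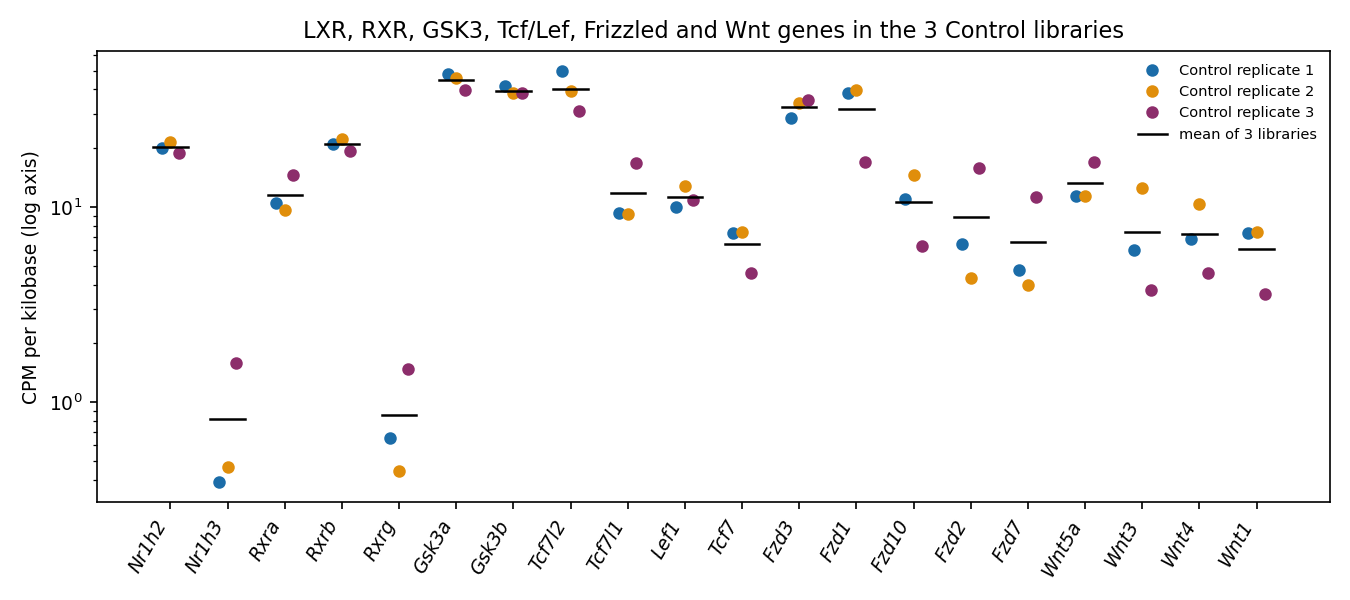
CPM per kilobase on a log axis of LXR, RXR, GSK3, Tcf/Lef, Frizzled and Wnt genes in the 3 Control libraries; points are libraries and bars their mean. Nr1h2 lies near 20.2 and Nr1h3 near 0.816, and Gsk3a and Gsk3b are close together at 44.6 and 39.5.

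Of 19 Wnt ligand genes 13 were detected, near the 61.1% of all rows, and 1 reached 10 CPM per kilobase, against 29.6% of rows. Wnt5a, a ligand of the non-canonical branch, was the highest at 50.8, 50.8 and 76.0 CPM (13.2 ± 3.25 per kilobase) and made up 24.2%, 20.2% and 37.5% of the summed per kilobase level of the ligands. Wnt3 (7.46 ± 4.55 per kilobase), Wnt4 (7.28 ± 2.93), Wnt1 (6.12 ± 2.21) and Wnt7b (4.41 ± 1.2) followed. Their ranges overlapped from each to the next, Wnt5a and Wnt3 included, so this order is not resolved between neighbours. In replicate 2 alone, Wnt3 at 40.3 CPM was at least 2-fold above its level in both others, 19.4 and 12.1 CPM, as were 0.102% of all rows at 10 CPM or more.

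The lower ligands were Wnt7a, Wnt9a, Wnt5b, Wnt3a, Wnt6, Wnt8b, Wnt2b and Wnt9b, from 2.93 down to 0.226 CPM per kilobase. Wnt11, Wnt2, Wnt16, Wnt10a, Wnt10b and Wnt8a were not detected, at 0.709 down to 0.0309 CPM. Wnt6 was at 0.0926, 0.297 and 4.76 CPM and so counted as detected through replicate 3. The same held for Wnt9b, which was at 0.894 CPM without replicate 3. Wls, the carrier that brings Wnt proteins to the cell surface, was at 250, 288 and 396 CPM (108 ± 26.3 per kilobase), and Porcn, which attaches their lipid, at 13.9, 15.3 and 14.0 CPM.

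All 21 Wnt receptor and coreceptor genes were detected. The highest were Ptk7, a pseudokinase receptor (34.0 ± 5.21 CPM per kilobase), the Frizzleds Fzd3 (32.7 ± 3.70) and Fzd1 (31.6 ± 12.7), and Ryk, a Wnt5a receptor (29.3 ± 1.11). The ranges of these 4 overlapped in turn, while Ryk lay above the next, Lrp6, in all 3 libraries. Among the 10 Frizzleds the order went on with Fzd10 (10.6), Fzd2 (8.88), Fzd7 (6.64), Fzd9 (3.89), Fzd8 (3.01), Fzd6 (2.88), Fzd4 (1.72) and Fzd5 (0.872 CPM per kilobase). Of neighbours in the Frizzled order, Fzd1 and Fzd10 alone had ranges that did not overlap.

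The make-up of the Frizzleds differed between libraries although their sum did not vary much, at 97.8, 108 and 103 CPM per kilobase. Fzd1 was at 171, 177 and 75.8 CPM and held 39.1%, 36.7% and 16.5% of the sum. Fzd2 was at 24.0, 16.1 and 59.2 CPM and Fzd7 at 23.2, 19.6 and 55.0 CPM, both highest in replicate 3. The coreceptors Lrp6 and Lrp5 were at 114, 129 and 183 CPM and at 49.1, 41.1 and 105 CPM. Ror1 and Ror2, receptors of Wnt5a, were at 3.66, 3.36 and 20.2 CPM and at 16.0, 5.64 and 31.9 CPM. The R-spondin receptors Lgr4, Lgr5 and Lgr6 were at 7.92, 4.75 and 0.510 CPM per kilobase, and Lgr6 was the lowest of the list. Znrf3 and Rnf43, ligases that remove Frizzleds, were at 8.85 and 0.787.

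Inside the cell all 30 Wnt pathway genes were detected, with a median of 23.5 CPM per kilobase and a median coefficient of variation of 10.3%. Ctnnb1, which encodes beta-catenin, was at 1184, 1267 and 1122 CPM (320 ± 19.5 per kilobase). The priming kinases Csnk1a1 and Csnk1d were at 120 ± 8.31 and 72.1 ± 5.69 CPM per kilobase. The ranges of the GSK3 genes per kilobase overlapped, with Gsk3a at 113, 108 and 94.0 CPM (44.6 ± 4.26 per kilobase) and Gsk3b at 348, 323 and 324 CPM (39.5 ± 1.69). Their ratio per kilobase was 1.16, 1.19 and 1.03.

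The 4 Tcf/Lef factors, which carry beta-catenin to DNA, were all detected. Tcf7l2 was at 231, 184 and 145 CPM (40.1 ± 9.20 per kilobase) and exceeded Lef1 by ratios of 4.98, 3.08 and 2.87. Tcf7l1 was at 11.8 ± 4.32, Lef1 at 11.2 ± 1.46 and Tcf7 at 6.45 ± 1.6 CPM per kilobase; the ranges of Tcf7l1 and Lef1 overlapped, those of the other neighbours did not. Axin2, a feedback target of beta-catenin, was at 72.8, 108 and 40.4 CPM, and Axin1, its constitutive relative, was even at 61.9, 60.1 and 54.9 CPM. Frat1, a GSK3-binding protein, was the lowest at 2.45 ± 0.0398 CPM per kilobase.

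Secreted Wnt modulators were detected for 15 of 18 genes. Wif1, which binds Wnt proteins, was at 58.8, 46.8 and 43.0 CPM (21.1 ± 3.51 per kilobase). The Dickkopf genes Dkk2 and Dkk3 were at 44.4, 103 and 44.7 CPM and at 43.2, 38.4 and 80.3 CPM. Rspo2, an agonist of the pathway, was at 7.41, 18.4 and 55.3 CPM, and Notum, a secreted Wnt deacylase and feedback gene, at 8.43, 16.9 and 2.22 CPM. Rspo4, Sfrp5 and Dkk4 were not detected at 0.304, 0.0693 and 0.0165 CPM.

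All 13 hedgehog pathway genes were detected, led by the transducer Smo (140, 177 and 131 CPM, 36.6 ± 5.97 per kilobase), Shh (20.0 ± 19.7, or 8.69 without replicate 3) and the receptor Ptch1 (76.8, 120 and 61.6 CPM, 19.6 ± 6.90). Gli1, a transcription factor that the pathway itself induces, was at 20.0, 45.8 and 4.52 CPM. Hhip, a feedback inhibitor and the lowest member, was at 14.8, 13.1 and 4.36 CPM. Gli1 and Hhip were thus lowest in replicate 3, the library with the highest Shh. So were 7 of the 13 members of this list, and 50% of all rows at 10 CPM or more. Gli3 and Gli2 were at 10.6 ± 2.43 and 5.93 ± 2.45 CPM per kilobase, and the range of Gli2 overlapped that of Gli1.

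All 19 Notch pathway genes were detected. Hes1, an effector that keeps progenitors cycling (25.7 ± 9.21 CPM per kilobase), Rfng, a fringe glycosyltransferase (25.4 ± 4.67), and Rbpj, the DNA-binding partner of Notch (20.3 ± 1.30), were the highest. Notch3, Notch2 and Notch1 were at 17.1 ± 2.58, 15.5 ± 3.88 and 11.5 ± 0.808 CPM per kilobase, and Notch4, a vascular receptor, was lowest at 0.540 ± 0.272. The first 3 overlapped in turn and Notch4 lay below them. Among ligands Jag1 led with 15.9 ± 3.79, followed by Dll1 at 6.62 ± 2.96. Hes5, another Notch effector, was at 4.68, 7.96 and 2.14 CPM.

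FGF pathway genes were detected for 16 of 18 members. Dusp6, a phosphatase induced by ERK, was at 419, 533 and 319 CPM (146 ± 37.0 per kilobase), and the feedback gene Spry1 at 207, 311 and 158 CPM (87.0 ± 30.2). Fgf15 was at 235, 409 and 43.9 CPM, a mean of 229 CPM that became 322 CPM without replicate 3. Among receptors Fgfr1 led at 308, 331 and 295 CPM (60.9 ± 3.60 per kilobase), followed by Fgfr2 at 19.9, 25.9 and 87.3 CPM. The ratio of Fgfr1 to Fgfr2 per kilobase was 16.5, 13.6 and 3.60. Fgf8 and Fgf2, a mitogen, were not detected at 0.710 and 0.208 CPM. Of the 6 FGF ligands of the list, Fgf15 alone was at 10 CPM per kilobase or more.

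All 24 BMP and TGF beta genes were detected. The BMP targets Id3 (77.5 ± 9.16 CPM per kilobase) and Id2 (35.4 ± 3.08) and the receptor Bmpr1a (32.5 ± 2.55) were the highest, and the receptor Bmpr1b was lowest (1.06 ± 0.468). Bmp7 was at 34.7, 41.8 and 113 CPM and Tgfb3 at 7.92, 7.81 and 31.6 CPM, both highest in replicate 3. Of 21 growth factor receptor genes 20 were detected, led by Cntfr, the CNTF receptor (117, 153 and 60.2 CPM), Il6st, its signalling partner (109, 109 and 251 CPM), and Igf2r (159, 147 and 438 CPM). The places of Il6st and Igf2r rested on replicate 3. Without it they were at 19.6 and 16.9 CPM per kilobase, under Igf1r at 22.6 and Gfra1 at 20.2. Igf1r was at 265, 282 and 394 CPM and exceeded Insr by ratios of 2.13, 2.38 and 2.36 per kilobase.

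Of 48 nuclear receptor genes 35 (72.9%) were detected, against 61.1% of all rows, and 8 reached 10 CPM per kilobase, against 29.6% of rows. Thra, a thyroid hormone receptor, was the highest at 177, 131 and 125 CPM (61.5 ± 12.1 per kilobase), and exceeded Thrb by ratios of 89.6, 107 and 33.9. The COUP factors Nr2f1 (31.8 ± 5.59) and Nr2f2 (22.7 ± 6.24) followed, then Rxrb and Nr1h2. Nr1h2 was thus among the 5 highest nuclear receptors per kilobase and Nr1h3 among those under 1 CPM per kilobase. Nr1i2, Hnf4a and Nr0b2, receptors of liver and gut, had 0 counts.

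Immediate early and stress genes were present in these vehicle cultures. All 16 immediate early genes were detected, led by Jun (166, 100 and 105 CPM, 37.7 ± 11.1 per kilobase), Jund (36.1 ± 6.53) and Egr1 (91.5, 82.7 and 81.0 CPM, 26.8 ± 1.79), with Egr2 lowest at 0.959. Their summed level was 633, 437 and 441 CPM. All 12 genes of endoplasmic reticulum and amino acid stress were detected, led by the chaperone Hspa5 (233 ± 17.1 CPM per kilobase), the transcription factor Atf4 (88.6 ± 14.0) and Ppp1r15a, which reverses the translational block (43.1 ± 18.6). The place of Ppp1r15a rested on replicate 3, without which it was at 32.4, under the list member Slc7a11 at 44.7 CPM per kilobase. Atf3 was lowest at 2.86 ± 0.939. Their summed level was close across libraries, at 1638, 1573 and 1608 CPM.

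The 10 rows with the largest coefficient of variation at 10 CPM or more were all highest in replicate 3, through which each of them passed that level, since all 10 lay under it in both others. They included Mir692-1, Mir5121, the mitochondrial tRNA rows mt-Ti and mt-Tw, Gbp10, Col9a1, Abca9, Crispld1 and Sned1, with values between 153% and 172%. Mir692-1 was at 0, 0.198 and 63.0 CPM, and mt-Ti, a tRNA row, at 2.04, 0.593 and 165 CPM. Col9a1, a cartilage collagen, was at 7.36, 0.148 and 124 CPM. Xist, expressed from the inactive X chromosome of females, was at 186, 507 and 1452 CPM, while the Y-linked Ddx3y was at 55.5, 50.9 and 30.8 CPM. Both were counted in each of the 3 libraries.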

How the data were processed

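The authors deposited a table of raw read counts per feature, with no normalisation, for 12 libraries of total RNA (Illumina TruSeq, per the labels' protocols). The submitters' processing notes name Bowtie and the build mm9. Neither the role of each, nor the annotation, strandedness or handling of multi-mapping reads is stated in the labels; genes that overlap, lie antisense or have near-identical copies may therefore share reads. The 1217 repeat rows, 0.245% to 0.289% of Control counts, stayed out of totals.

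CPM was each count over the library's gene-row total (12268085 to 21314093) times a TMM factor from edgeR 4.0.16 (R 4.3.3) over the 12 libraries; Python 3.11.15 was used otherwise. CPM per kilobase divides by the length deposited in the table. For 4911 of 20554 rows (23.9%) this is exactly 100 bases above a GENCODE M21 transcript and for mitochondrial rows never, so levels of short genes may be understated. Positions are as listed; their base of counting is not stated. Where a symbol had several locus rows, the highest was used.

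With 1 group there was no test. The chi-square per gene row was 28.2 to 73.3 between pairs of libraries, far above sampling noise. Members and the 43 gene lists were chosen with earlier results of these data known. Named genes were the 6 markers, the top 15 rows per kilobase and top 10 by CPM, per list the 3 highest, the lowest and members under 1 CPM where 5 or fewer, small families, and the 10 rows of largest coefficient of variation; others were chosen after their values were seen. Wnt, Tcf/Lef, Frizzled and Hox groups are subsets of the lists. Hmgcs1 and Disp1 had no row. Map2, Myrf, Msmo1 and Draxin were read from older symbols. Alternatives were other scalings (none, Control TMM, DESeq2 1.42.0 size factors), thresholds, a list filter, each library left out and, added after seeing the data, another length, totals without globins and a 10 CPM filter on 2 libraries. The scaling to CPM and the number of detected rows were checked on simulated counts that held sampling noise only. The list medians and the comparisons between libraries were not checked in this way. Some genes that the naming rule takes are not reported here.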

Additional observations from a re-analysis of the deposited data

How the results depend on the processing

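No paired analysis was possible because the 3 libraries are 1 group and no result comes from a test. Of 879 recomputed values of 98 results, 833 moved by no more than the spread between libraries (for counts, by at most 1.5 times) and 46 by more. The cause was not tested. This rule cannot show stability when a library is left out, since a mean over 3 libraries then moves by less than their SD whatever the values. Large moves of medians also lay within the spread, such as that of the floor plate list from 7.25 to 3.86 CPM per kilobase without replicate 3. No value moved by more under another scaling, the shorter length or without globins. With the filter at 10 CPM on the other 2 libraries, 8 floor plate members were at least 2-fold higher in replicate 3, and 12 mesenchymal members of 14 at least 2-fold lower in replicate 2 (1.43% of rows). With each library left out in turn, hindbrain genes detected ranged from 2 to 8 and muscle genes from 0 to 1. At 0.5 CPM, 8 hindbrain, 2 posterior Hox and 4 muscle genes were detected; at 2 CPM, 2 hindbrain and 1 endoderm gene. With 1 CPM required in every library, detection held for 2 hindbrain, 3 motor and serotonergic, 4 endothelial, 4 neural crest, 3 epithelial and 1 endoderm genes.

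With each library left out in turn, list medians in CPM per kilobase moved by over 1.5 times in 10 of 43 lists. Without replicate 3 they became 3.86 (floor plate), 1.39 (dopaminergic neuron), 2.87 (other ventral progenitor), 4.68 (mesenchyme), 57.0 (erythroid) and 0.0276 (pluripotency), and without replicate 1 0.00324 (hindbrain), 6.27 (astrocyte), 0.636 (endothelial) and 0.575 (neural crest), against 7.25, 2.11, 4.45, 8.73, 136, 0.0585, 0.343, 9.62, 1.12 and 0.963 over all 3. Ranges of medians that moved by more than the spread were 24.7 to 30.1 (progenitor), 2.87 to 4.81 (other ventral progenitor), 0.322 to 0.476 (motor and serotonergic), 1.55 to 2.16 (oligodendrocyte), 0.636 to 1.38 (endothelial), 21.8 to 23.8 (cholesterol), 5.37 to 7.71 (Wnt receptor), 8.45 to 10.3 (Notch) and 15.2 to 17.9 (FGF). Over members at 1 CPM or more alone, a filter that removes low members and so lifts the median, they were 5.74 (proneural), 3.54 (dopaminergic neuron), 3.46 (posterior Hox), 11.9 (dorsal), 1.26 (motor and serotonergic), 3.77 (oligodendrocyte), 2.04 (endothelial), 3.13 (microglia), 559 (erythroid), 3.53 (neural crest), 10.98 (endoderm), 1.59 (pluripotency), 17.3 (LXR target), 4.02 (oxysterol enzyme), 25.6 (cholesterol), 2.94 (Wnt ligand), 7.57 (Wnt modulator), 28.0 (FGF) and 4.59 (nuclear receptor).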

Other observations

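Genes of pluripotent and germ line cells were detected for 3 of 10 members. Nanog, a homeobox factor of pluripotent cells, was at 4.03, 5.88 and 10.7 CPM in Control replicates 1, 2 and 3, whereas Pou5f1, its usual companion, was at 0, 0.0494 and 0 CPM and Zfp42 and Dppa3 had 0 counts. Near-identical pseudogene copies of Nanog are known, and the handling of multi-mapping reads is not stated in the labels. Klf4 and Esrrb, which other tissues also express, were at 4.99 ± 2.09 and 5.04 ± 2.29 CPM (SD, n = 3).

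Hoxc8 was at 8.54 ± 7.66 CPM, while the neighbouring Hoxc6, Hoxc9 and Hoxc10 had 0 counts in the 3 libraries. The basal epithelial keratins Krt5 and Krt14 were nearly absent from replicate 1, in which Krt5 was at 0.185 CPM, against 6.13 and 13.9 CPM in replicates 2 and 3. Trp63 differed, as its mean over replicates 1 and 2 was also low, at 0.215 CPM. These genes were singled out after their values were seen.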
